A study of Mus musculus with 2 samples.

Results

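The genes described here are 9 genes that mark microglia, the resident macrophages of the brain, in mouse hippocampus: the complement genes C1qa, C1qb and C1qc, the receptor genes Csf1r, Cx3cr1, P2ry12 and Trem2, the membrane protein gene Tmem119 and the protease gene Ctss. They were taken by gene name from the read tables of the series, and they are 9 of 19042 genes with at least 1 read. They held 482 of 1168366 reads and 46 of 143443 transcript models in replicate 1, and 458 of 888704 reads and 49 of 126438 models in replicate 2. The series applied long-read RNA sequencing, in which 1 read covers a cDNA copy of a transcript and carries its exon order, to total RNA of hippocampus (the label gives the tissue as a layer of hippocampus). All mice were females of strain B6CASTF1/J, a first-generation cross between C57BL/6J and CAST/EiJ, aged 14 days, with no treatment named. There was 1 group of 2 libraries, replicate 1 and replicate 2. Each was 1 library from a pool of 3 mice, started from 2 µg of RNA, so the spread between animals within a pool was not measured. The sample characteristics give different animal numbers for each library, while a description line of both repeats those of replicate 1. With no second condition, the comparisons are of the genes and their transcript forms within the tissue, and of the 2 libraries with each other.

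Microglia enter the brain early in development, depend on signalling through the CSF1 receptor and survey the tissue with fine processes. C1q is the recognition molecule that starts the classical complement pathway. It is assembled from the products of C1qa, C1qb and C1qc, each with a collagen-like stalk and a globular head, and in the brain it is known for tagging synapses that microglia then engulf during postnatal development. CX3CR1 receives the neuronal ligand fractalkine, P2RY12 senses ADP and steers the processes, and TREM2 is a lipid-sensing receptor that signals through TYROBP. TMEM119 is a membrane protein used as a microglial marker, and cathepsin S, the product of Ctss, is a lysosomal cysteine protease. In whole tissue, fewer cells of a type and less RNA per cell cannot be told apart.

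Levels are in CPM, counts scaled to 1000000 reads in each library with the spike-ins included. A single read was worth 0.856 CPM in replicate 1 and 1.13 CPM in replicate 2, and a count of 0 allows a level of up to 2.57 and 3.38 CPM (3 reads). Intervals are exact Clopper-Pearson intervals at 95% and cover counting error only. The libraries differed in other ways. All 7 listed genes of hippocampal neurons were read in both libraries, with sums of 1090 and 1121 CPM made of genes that differed in both directions, such as the granule cell gene Prox1 with 8 and 34 reads and Pcp4 with 369 and 202. Choroid plexus markers summed to 4638 CPM in replicate 1 and 5.63 CPM in replicate 2, blood markers to 579 and 358 CPM, and astrocyte markers to 2995 and 4766 CPM. Among other immune cells, 8 of 9 listed genes of border and perivascular macrophages were read, with sums of 28.2 and 27.01 CPM and Lyve1 at 0. The 8 monocyte and neutrophil markers summed to 0 and 1.13 CPM, with Ccr2, Ly6c2, S100a8 and S100a9 at 0, and the 7 lymphocyte markers to 0 and 2.25 CPM.

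The 3 C1q genes were read at similar levels, and each was read mostly as 1 annotated transcript with 3 exons, which held from 77.3% (C1qc) to 94.1% (C1qb) of the gene's reads in replicate 1 and from 79.3% (C1qa) to 89.8% (C1qb) in replicate 2. They lie side by side on the minus strand of chromosome 4 (mm10): C1qb (ENSMUSG00000036905.8) from 136880129 to 136886187, C1qc (ENSMUSG00000036896.5) from 136889804 to 136893065 and C1qa (ENSMUSG00000036887.5) from 136895917 to 136898803. C1qa had 79 reads (replicate 1) and 58 reads (replicate 2), which are 67.6 and 65.3 CPM (66.4 ± 1.66, SD, n = 2). C1qb had 85 and 49 reads, or 72.8 and 55.1 CPM (63.9 ± 12.5). C1qc had 97 and 75 reads, or 83.0 and 84.4 CPM (83.7 ± 0.969). C1qc was the highest of the 3 in each library, and the counting intervals of all 3 genes overlapped within each library. Their shares of the summed C1q reads were 30.3% and 31.9% for C1qa, 32.6% and 26.9% for C1qb and 37.2% and 41.2% for C1qc. Together the C1q genes stood at 223 and 205 CPM (214 ± 13.1), which was 54.1% of the reads of the 9 genes in replicate 1 and 39.7% in replicate 2.

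The start codon of each C1q gene is in exon 2 and the stop codon in exon 3, so the join of exon 2 and exon 3 is the splice junction inside the coding sequence. The bases around it in the leading transcripts (GENCODE M21, 27 on each side, 5′ to 3′) are shown because this is the junction that reads lacking exon 1 still held.
C1qa-201: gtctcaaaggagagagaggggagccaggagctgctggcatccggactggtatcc
C1qb-201: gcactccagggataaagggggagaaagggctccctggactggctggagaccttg
C1qc-201: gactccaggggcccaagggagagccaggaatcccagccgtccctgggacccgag
C1qa-201 took 68 of 79 and 46 of 58 reads, C1qb-201 80 of 85 and 44 of 49, and C1qc-201 75 of 97 and 64 of 75. Incomplete splice matches of the suffix kind, which hold only the 3′ part of an annotated chain, were the next spliced form of C1qa and C1qb. Their models begin at the first base of exon 2, with 5 and 8 reads of C1qa and 3 and 4 of C1qb. All span the start codon, but these ends sit on the exon edge. Reads that began inside exon 2 could be counted there too. Counting all models, 100% of C1qa reads in replicate 1 and 96.6% in replicate 2 lay in models that spanned both codons, against 97.6% and 100% for C1qb and 84.5% and 90.7% for C1qc.

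C1qc had a spliced form outside the annotation that was read in both libraries. Its first exon of 83 bases began at 136892876, the annotated start of C1qc-202, and used a splice donor 50 bases further downstream than that of C1qc-201, whose first exon has 222 bases. It joined the annotated exon 2, so the change lies in the 5′ untranslated region. It was read 6 times in replicate 1 and 3 times in replicate 2, 6.19% (interval 2.30% to 12.98%) and 4.00% (0.833% to 11.2%) of the C1qc reads. A further read in each library was in a model that begins at the same base and keeps intron 1. The other C1qc reads outside the annotated chains were unspliced reads at the 3′ end of the last exon, 14 and 7, which the deposited models represent as features of only 1 and 101 bases. C1qa and C1qb had 4 and 1 unannotated spliced forms with a new splice site, each with 1 read in 1 library. Of these, 1 read of C1qa in replicate 2 began at 136912963, upstream of the annotated start.

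Csf1r (ENSMUSG00000024621.16, chromosome 18, plus strand, 61100598 to 61132149), the receptor for CSF1 and IL34, had the longest leading transcript of the 9 genes and, among the 7 with at least 20 reads in each library, the smallest share of reads on annotated transcripts. Its 69 and 83 reads (replicates 1 and 2) were 59.1 and 93.4 CPM (76.2 ± 24.3, SD, n = 2). The 21-exon transcript Csf1r-202, of 4701 nt, took 31 and 47 of these reads. A further 21 and 14 reads were unspliced reads of the last exon region, and 14 and 16 reads were suffix matches that lacked 1 or more of the first exons. None of the suffix models spanned the start codon, which is in exon 1 of Csf1r and in exon 2 of the C1q genes. Reads in models with both the start and the stop codon made up 49.3% (37.0% to 61.6%) and 62.7% (51.3% to 73.0%). Models on the opposite strand, of Hmgxb3 and in replicate 1 also of an unnamed locus, overlapped Csf1r exons with 20 reads in each library. Whether the counting used strand is not stated.

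Along the 48 and 69 spliced reads of Csf1r, the share holding an exon fell towards the 5′ end. Exon 1 was held by 34 reads in replicate 1 (70.8%, 55.9% to 83.0%) and 52 in replicate 2 (75.4%, 63.5% to 84.9%), exon 2 by 81.2% and 87.0%, and exon 3 by 85.4% and 91.3%. In replicate 2 all spliced reads held exon 8 and those after it, while in replicate 1 this was so from exon 16. The intervals of the libraries stood apart at exon 8 alone, where replicate 1 held 85.4% (72.2% to 93.9%) and replicate 2 100% (94.8% to 100%). They overlapped at every other exon, including exon 9 with 87.5% (74.8% to 95.3%) and 100% (94.8% to 100%). The difference at exon 8 was not tested.

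**Figure D1:**
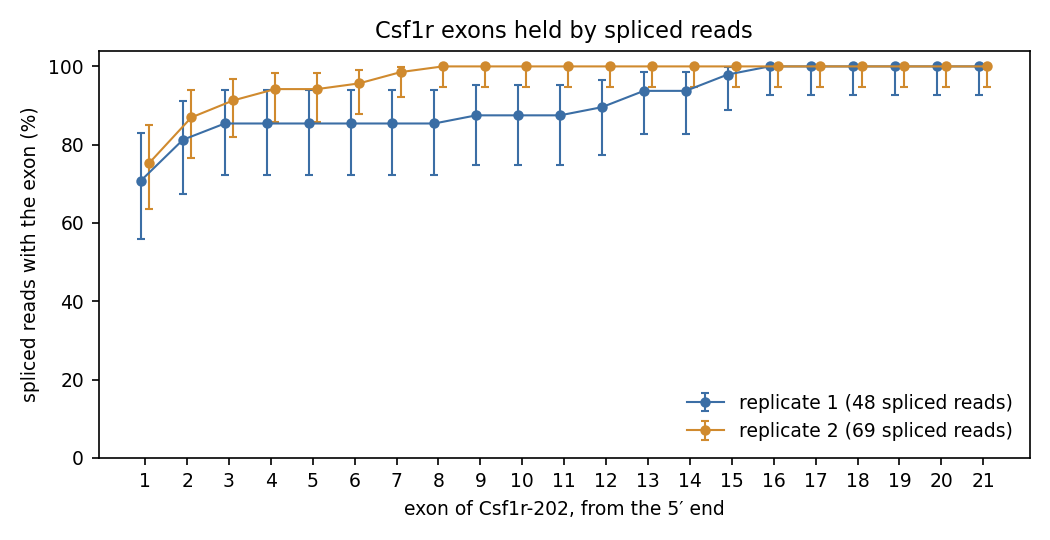
Share of spliced Csf1r reads that hold each of the 21 exons of Csf1r-202 (y axis, percent), by exon number from the 5′ end (x axis). Points are the 2 libraries and bars exact 95% intervals. Both lines end at 100% on the 3′ side and start at 70.8% and 75.4% at exon 1.

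Reads of annotated transcripts carry the annotated start in the deposited models, so their own 5′ ends cannot be seen. On this basis most spliced Csf1r reads shared 1 start. Starts within 100 nt of each other were joined, and the leading one, from 61105852 to 61105879, took 34 of 48 spliced reads in replicate 1 (70.8%) and 50 of 69 in replicate 2 (72.5%). The upstream start at 61100598, annotated for the non-coding Csf1r-206, was used by 2 reads of replicate 2 (2.90%, 0.353% to 10.1%) with 22 exons each, 1 a new combination of annotated sites and 1 with an unannotated site, and by 0 of 48 in replicate 1. The remaining spliced reads were in models that begin at single positions between exon 2 and exon 16. The largest such set was at the first base of exon 2 with 5 and 8 reads. Most of these positions are annotated exon edges, so they do not show where the reads themselves began.

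P2ry12 (ENSMUSG00000036353.13, chromosome 3, minus strand, 59216272 to 59262871) differed most between the libraries among the 9 genes. It lies within Med12l, which is on the other strand. There were 55 and 88 reads (replicates 1 and 2), or 47.1 CPM (35.5 to 61.3) and 99.0 CPM (79.4 to 122), a mean of 73.0 ± 36.7 (SD, n = 2). The intervals of the libraries did not overlap. The 2-exon chain of P2ry12-205 took 43 and 72 reads, 78.2% and 81.8%. The annotation of this transcript ends inside the coding sequence after 619 nt, and its only intron is part of every other annotated form, so reads that lost their 5′ exons would also be counted there.

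The coding sequence of P2ry12 lies in the last exon, which begins 4 bases before the start codon, so the annotated starts differ upstream of the coding sequence. The junctions that separate the starts are shown as 15 bases on each side (GENCODE M21). The first line is the junction shared by all forms, with the start codon in capitals, and the other lines are the joins of exon 1 and exon 2 from the distal start (P2ry12-204) and from the proximal one (P2ry12-202).
P2ry12-205: attcagcagaaccaggaccATGgatgtgcc
P2ry12-204: gggtcacagtgcaagaacactcaaggctgc
P2ry12-202: gaatattcacagaagaacactcaaggctgc
The proximal start, from 59220200 to 59220259, was assigned 46 of 50 spliced reads in replicate 1 (92.0%, 80.8% to 97.8%) and 75 of 85 in replicate 2 (88.2%, 79.4% to 94.2%). Of these, 43 and 72 were of P2ry12-205, whose only intron is in every form, so they do not tell the starts apart. P2ry12-202, which holds the proximal junction, had 3 and 2 reads. The distal start, from 59262831 to 59262871, took 4 reads (8%, 2.22% to 19.2%) and 7 reads (8.24%, 3.38% to 16.2%). The intervals of the libraries overlapped for both starts. A further 3 reads of replicate 2 were in a model that begins at 59220096, the first base of the exon before the last. Distal reads came as a 5-exon chain with 3 and 2 reads, a 4-exon chain with 0 and 5 reads, and P2ry12-204 with 1 and 0. The first 2 of these combine annotated splice sites in an order that is not annotated.

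In replicate 2 there were also 4 P2ry12 reads whose coding exon was interrupted by a pair of removed stretches, 3 reads of 1 form and 1 of another. The removed bases added up to 676 and 764 of the 1044 coding bases, or 64.8% and 73.2%, and neither number is a multiple of 3. No such read was seen among the 55 of replicate 1.

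Trem2 (ENSMUSG00000023992.14, chromosome 17, plus strand, 48346401 to 48354147) had the lowest mean level of the 9 genes and was read only as annotated transcripts. There were 9 reads in each library, or 7.70 and 10.1 CPM (8.92 ± 1.71, SD, n = 2). In replicate 1 Cx3cr1 was lower, with 8 reads, and the counting intervals of both genes overlapped in each library. Trem2-201, which encodes the full receptor in 5 exons, had 5 and 7 reads. Trem2-203, a 4-exon form that retains intron 1, had 3 and 1 reads, and Trem2-202 had 1 and 1. With 9 reads, the share of Trem2-201 was 55.6% (21.2% to 86.3%) in replicate 1 and 77.8% (40.0% to 97.2%) in replicate 2. Trem2-202 takes an earlier acceptor for exon 4, which adds 55 bases and moves the annotated stop codon by 11 bases. The join of exon 3 and exon 4 is printed with those bases in capitals, since they are what separates the coding forms.
Trem2-201: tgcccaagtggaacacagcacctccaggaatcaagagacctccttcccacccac
Trem2-202: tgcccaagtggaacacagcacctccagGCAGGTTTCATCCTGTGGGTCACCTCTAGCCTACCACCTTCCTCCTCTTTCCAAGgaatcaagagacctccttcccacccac

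**Figure D2:**
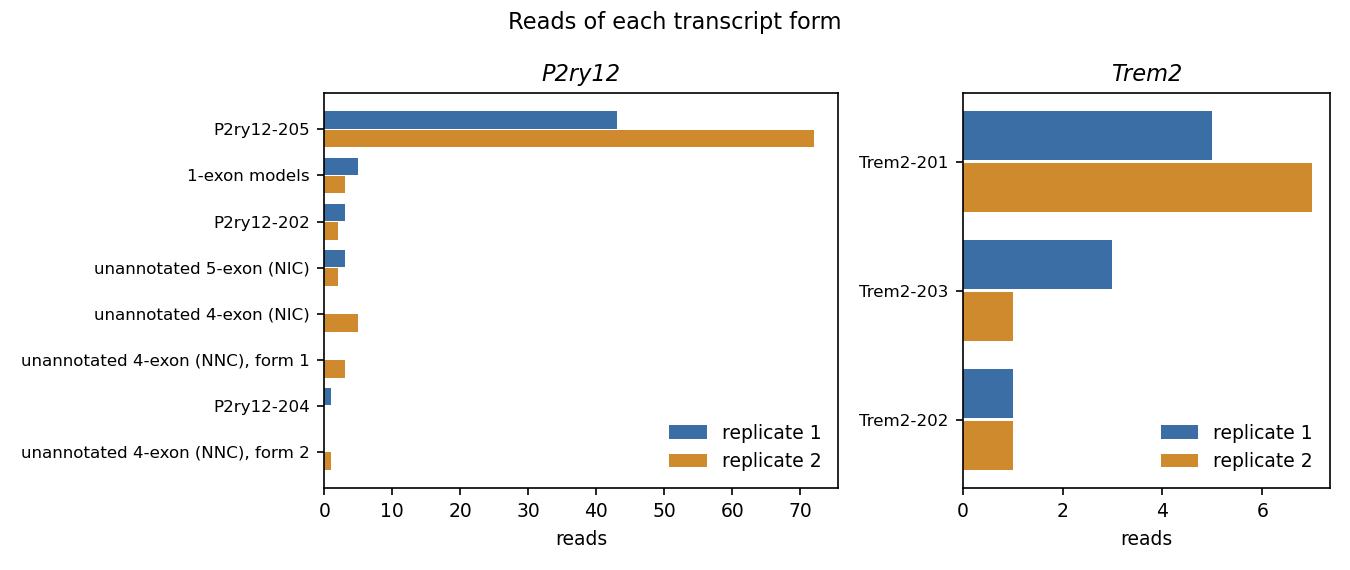
Reads (x axis) of each transcript form of P2ry12 and Trem2 (y axis) in the 2 libraries. P2ry12-205 leads with 43 and 72 reads, and the NIC and NNC forms, new combinations of annotated sites and forms with an unannotated site, have at most 5 reads each. Trem2 is read as 3 annotated transcripts, with at most 7 reads each.

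Cx3cr1 (ENSMUSG00000052336.7, chromosome 9, minus strand, 119901616 to 120069879) had 8 and 12 reads (replicates 1 and 2), which are 6.85 and 13.5 CPM (10.2 ± 4.71, SD, n = 2). Almost none of them told its splicing. Only 1 read in each library was spliced, as Cx3cr1-201, and 4 and 7 reads lay on the last 597 bases of the last exon, from 120048683 to 120049279. A further 2 and 4 reads carried the gene's name without touching any of its exons. They lay in the intron before the distant last exon of Cx3cr1-202, a span that also holds Gorasp1, Csrnp1, Xirp1 and other genes. Reads on Cx3cr1 exons were thus 6 of 8 and 8 of 12, or 5.14 and 9.002 CPM, and reads of annotated transcripts alone gave 0.991 ± 0.190 CPM. The gene level is for the most part a count of unspliced reads.

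Tmem119 (ENSMUSG00000054675.5, chromosome 5, minus strand, 113793729 to 113800516) had 45 and 58 reads (replicates 1 and 2), which are 38.5 and 65.3 CPM (51.9 ± 18.9, SD, n = 2). The 2-exon Tmem119-201, with the coding sequence in its last exon, took 39 and 41 reads. Unspliced reads at the 3′ end numbered 6 and 14, 13.3% (5.05% to 26.8%) and 24.1% (13.9% to 37.2%). Tmem119-202, with an additional exon, had 0 and 2 reads.

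Ctss (ENSMUSG00000038642.10, chromosome 3, plus strand, 95526786 to 95556403) was read at 35 and 26 reads, or 29.96 and 29.3 CPM (29.6 ± 0.495, SD, n = 2). The 8-exon Ctss-202 took 31 and 22 of them, and 3 and 3 reads were suffix matches without the start codon in exon 1. Ctss-201, with 0 and 1 reads, takes an acceptor 3 bases earlier for exon 2, which keeps the reading frame. The join is printed from the start codon on, with the added bases in capitals.
Ctss-202: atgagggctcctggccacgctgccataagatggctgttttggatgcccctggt
Ctss-201: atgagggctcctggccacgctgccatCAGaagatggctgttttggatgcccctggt

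RefSeq promoter windows (GRCm38.p6) were found for 6 of the 9 members, and the bases before the start were searched for GAGGAA, the core of many sites of the myeloid factor PU.1, and for the longer GAGGAAGT, on both strands (TTCCTC and ACTTCCTC, where the longer contains the shorter). GAGGAA was present in the 250 bases of 4 of the 6, and GAGGAAGT in 1, the window of C1qc. The windows of Cx3cr1 and P2ry12 held no match. That of P2ry12 precedes the RefSeq start 59262985, which lies 114 bases before the distal start at 59262871. The bases before the proximal start, which took most spliced P2ry12 reads, were not searched. Of all 32851 windows, 23.3% held GAGGAA and 2.44% GAGGAAGT. The windows with a match are printed on the strand of the gene with the match in capitals, the C1qc window only up to the start of C1qc-201. They are chr4:136886201-136886450 for C1qb, whose RefSeq start lies 13 bases before that of C1qb-201, chr4:136893066-136893164 for C1qc, chr3:95526536-95526785 for Ctss and chr17:48346151-48346400 for Trem2.
C1qb: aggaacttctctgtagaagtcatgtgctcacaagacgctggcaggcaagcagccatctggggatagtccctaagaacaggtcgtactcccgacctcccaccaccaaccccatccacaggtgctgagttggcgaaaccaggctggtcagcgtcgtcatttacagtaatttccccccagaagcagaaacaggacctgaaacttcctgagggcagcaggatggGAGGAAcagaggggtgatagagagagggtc
C1qc: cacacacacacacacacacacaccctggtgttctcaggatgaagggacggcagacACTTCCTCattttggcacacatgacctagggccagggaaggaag
Ctss: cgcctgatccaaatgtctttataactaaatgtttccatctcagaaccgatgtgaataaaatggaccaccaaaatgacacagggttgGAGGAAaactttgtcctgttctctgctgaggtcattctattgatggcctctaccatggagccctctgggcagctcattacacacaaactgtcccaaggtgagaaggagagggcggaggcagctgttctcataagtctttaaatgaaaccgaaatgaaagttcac
Trem2: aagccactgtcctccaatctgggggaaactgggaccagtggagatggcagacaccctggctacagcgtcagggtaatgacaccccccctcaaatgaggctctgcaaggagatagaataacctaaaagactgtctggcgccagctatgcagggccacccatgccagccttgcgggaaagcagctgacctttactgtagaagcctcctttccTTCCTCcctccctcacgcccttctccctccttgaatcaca
At the annotated start next to each of the printed stretches, spliced reads numbered 80 and 45 for C1qb, 75 and 64 for C1qc, 31 and 23 for Ctss and 9 and 9 for Trem2. The RefSeq start of C1qc, 136892914, is not that of C1qc-201: it lies 38 bases before another annotated start, 136892876, which had 8 and 4 spliced reads. A match is a description of the sequence and says nothing of binding in this tissue.

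By mean level the order was C1qc, Csf1r, P2ry12, C1qa, C1qb, Tmem119, Ctss, Cx3cr1 and Trem2. The ranges of neighbours over the libraries overlapped for every pair from C1qc to Tmem119 and for Cx3cr1 and Trem2. Tmem119 stood above Ctss by 22.3 CPM and Ctss above Cx3cr1 by 19.4 CPM, both more than the larger SD of the pair. Summed over the 9 genes the level was 413 CPM in replicate 1 and 515 CPM in replicate 2 (464 ± 72.7). Here 1 read covers a cDNA copy of a transcript, so counts do not call for division by length, which lowers genes with long transcripts. Per kb of the most read annotated transcript, given as a description only, P2ry12 led with 118 ± 59.3 CPM per kb. C1qc followed with 69.6 ± 0.806, C1qa with 63.9 ± 1.60 and C1qb with 58.8 ± 11.4, while Csf1r had 16.2 ± 5.16. The place of P2ry12 rests on the 619 nt of P2ry12-205. Per kb of its longest annotated transcript it had 31.2 ± 15.7, below all 3 C1q genes.

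**Figure D3:**
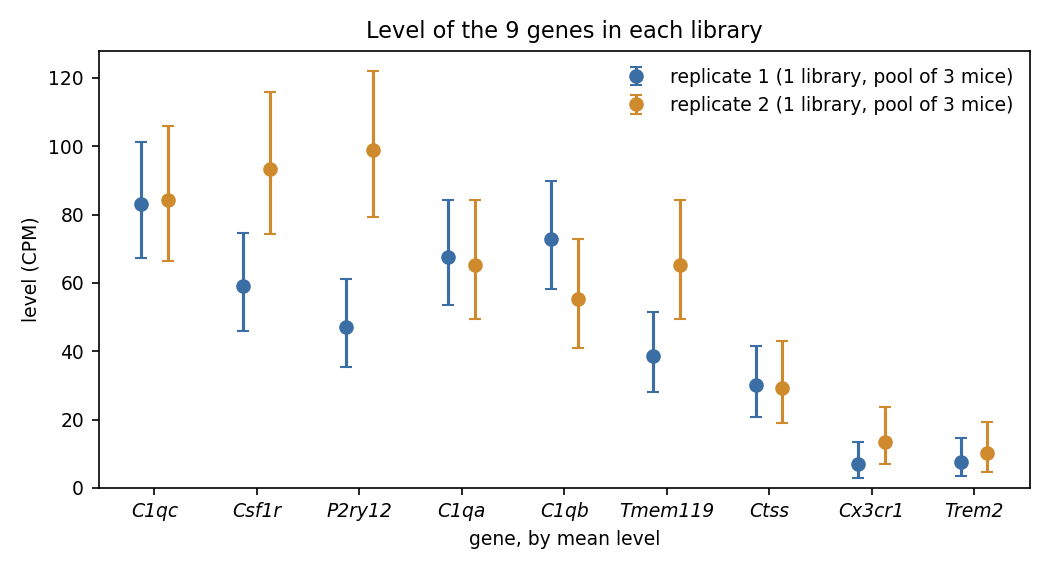
Level of each of the 9 genes (y axis, CPM) in the 2 libraries, ordered by mean level (x axis). Points are single libraries and bars exact 95% intervals for counting error. For P2ry12 the interval of replicate 2 (79.4 to 122) lies above that of replicate 1 (35.5 to 61.3), and for the C1q genes and Ctss the intervals overlap widely.

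Most member reads were of annotated transcripts, with a wide range over the genes. Annotated transcripts held 79.3% of the member reads in replicate 1 and 76.6% in replicate 2 (77.9% ± 1.85, SD, n = 2), where all annotated genes had 71.8% and 71.5%. They held 85.8% and 84.6% of the C1q reads and 71.5% and 71.4% of those of the other 6 members. Trem2 was at 100% in both libraries and Cx3cr1 at 12.5% and 8.33%, with 7 genes between. Incomplete splice matches took 11.0% and 7.21% of the member reads (10.7% and 10.5% for all annotated genes). New combinations of annotated sites took 0.830% and 1.97% (all genes 5.60% and 6.91%). Forms with an unannotated splice site took 1.66% and 3.28% (all genes 3.76% and 4.18%). Genomic models, which are unspliced or fit no chain, took 7.26% and 10.9% (all genes 8.16% and 6.86%).

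Unspliced reads of 1 exon were labelled differently in the libraries. The 21 unspliced Csf1r reads of replicate 1 were deposited as an incomplete splice match of 831 nt, and 13 of the 14 in replicate 2 as a genomic model of 369 nt on the same exon. Incomplete splice matches made up 52.2% of the Csf1r reads in replicate 1 and 19.3% in replicate 2. Over all classes, 1-exon models held 12.4% of the member reads in replicate 1 and 10.9% in replicate 2, against 14.2% and 11.8% for all annotated genes. Without them, annotated transcripts held 88.3% ± 3.18 of the member reads. The ends of the unannotated spliced models could not show where transcripts ended, because 17 of 19 in replicate 1 and 23 of 25 in replicate 2 had both ends exactly on annotated exon edges. Of the reads of unannotated models, 15 of 100 and 20 of 107 were in models that begin within 100 nt of an annotated 5′ end of the gene (16.8% ± 2.61, SD, n = 2). This share counts reads by the start of their model and does not show where the reads began.

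**Figure D4:**
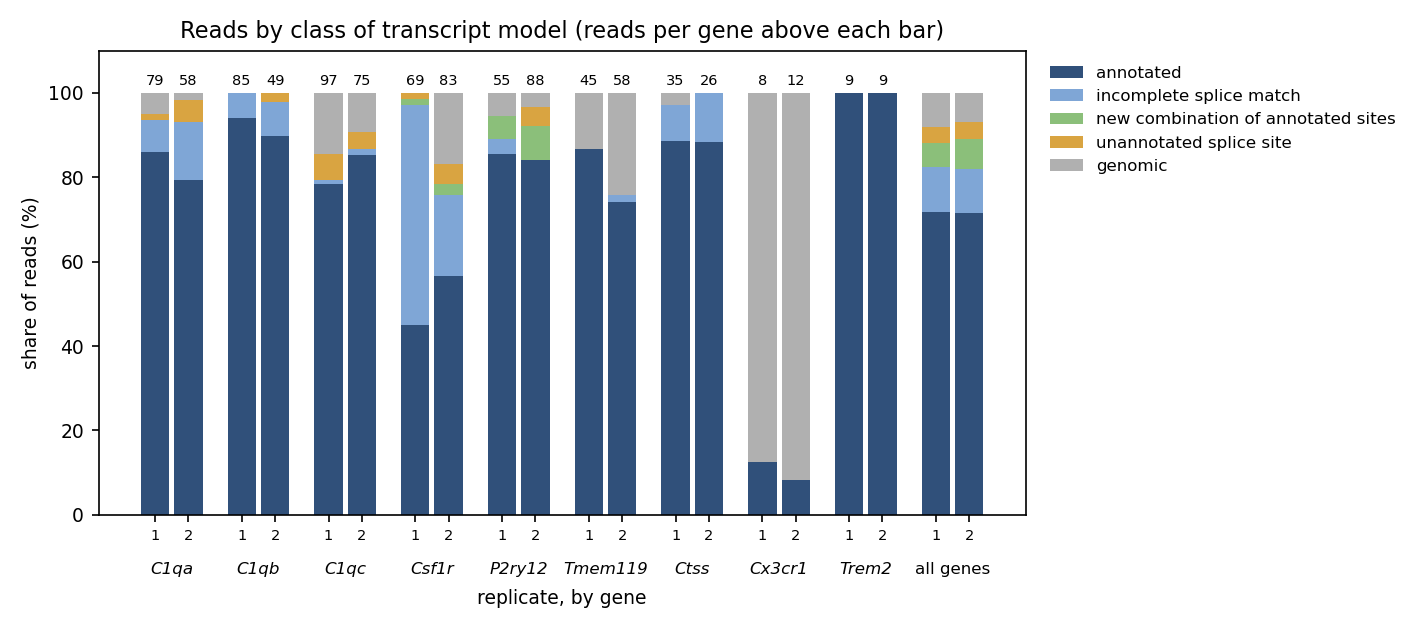
Share of reads (y axis, percent) in each class of transcript model for the 9 genes and for all annotated genes, with 1 bar per library (x axis, replicates 1 and 2) and the gene's reads above each bar. Csf1r and Cx3cr1 have the smallest annotated shares, and the light blue part of Csf1r in replicate 1 includes the 21 unspliced reads that are mostly grey in replicate 2.

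Unannotated spliced chains of the members were mostly seen once. There were 36 such chains, 19 in replicate 1 and 25 in replicate 2, of which 8 were read in both libraries and 20 rested on 1 read. The 8 shared chains were 2 of C1qc, 2 of Csf1r and 1 each of C1qa, C1qb, P2ry12 and Ctss, and held 26 of 40 and 30 of 57 of these reads. Csf1r accounted for 18 of the 36 chains.

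Between the libraries, P2ry12 and Csf1r were read more in replicate 2, and the other 7 genes did not pass the test. Each gene's reads were set against the split of the library totals in a two-sided exact binomial test with Benjamini-Hochberg adjustment over 11681 genes with at least 10 reads. All tests take reads as the unit and compare these libraries, not conditions. The test called 2 of the 9 members, where it called 11.5% of all genes (6.25% higher in replicate 2 and 5.24% higher in replicate 1). The log2 ratio, replicate 2 to replicate 1, was 1.06 for P2ry12 (adjusted p = 0.000384, exact binomial test; 1 CPM was added before the logarithm). For Csf1r the log2 ratio was 0.65 (adjusted p = 0.0468, exact binomial test). Tmem119 had 0.75 (adjusted p = 0.0717, same exact test) and Cx3cr1 0.89 (0.462). The log2 ratios of C1qa, C1qb, C1qc and Ctss were -0.05, -0.39, 0.02 and -0.03, and that of Trem2 was 0.35, with adjusted p from 0.407 to 1. The median over the members was 0.35 and that over all tested genes 0.11.

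The Csf1r call was lost under 6 of the 9 other settings run, and the P2ry12 call was kept under all 9. TMM-scaled totals lower every log2 ratio by 0.13, and they changed the genes called from 730 higher in replicate 2 and 612 in replicate 1 to 370 (3.17%) and 805 (6.89%). With them the adjusted p of the exact binomial test was 0.146 for Csf1r and 0.00279 for P2ry12. With the trend of the ratio on transcript length removed, the log2 difference, with no CPM added, was 0.36 for Csf1r (adjusted p = 0.545, exact binomial test) and 1.77 for P2ry12 (8.99e-11), or 0.98 (0.00296) when the longest annotated transcript replaced the 619 nt of P2ry12-205. Of the members, 1 passed with TMM-scaled totals (10.1% of all genes), with DESeq2 size factors (10.2%), with no read minimum (6.07%), with the totals of annotated genes (10.9%) and with the trend removed by either length (3.98%, and 4.69% by the longest transcript). With a read minimum of 50 there were 3 of 7 (22.1%), Tmem119 among them, and 2 with annotated transcripts only (12%) and with spike-in reads left out of the totals (11.4%). The trend itself was negative at the lengths of the C1q transcripts, -0.45 for C1qa, -0.42 for C1qb and -0.34 for C1qc, and 0.30 at that of Csf1r. All 9 members lay above the trend, with either length, as did 50.6% and 50.8% of all tested genes. Astrocyte markers, at 2995 and 4766 CPM, were also higher in replicate 2, with 5 of 6 genes passing. Of the 7 listed genes of hippocampal neurons 3 passed higher in replicate 2 and 1 higher in replicate 1 (2 and 3 with TMM-scaled totals), with log2 ratios from -0.47 for Pcp4 (adjusted p = 0.00303, exact binomial test) to 2.32 for Prox1 (3.65e-05). The part of tissue composition or of transcript length in these differences was not tested.

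**Figure D5:**
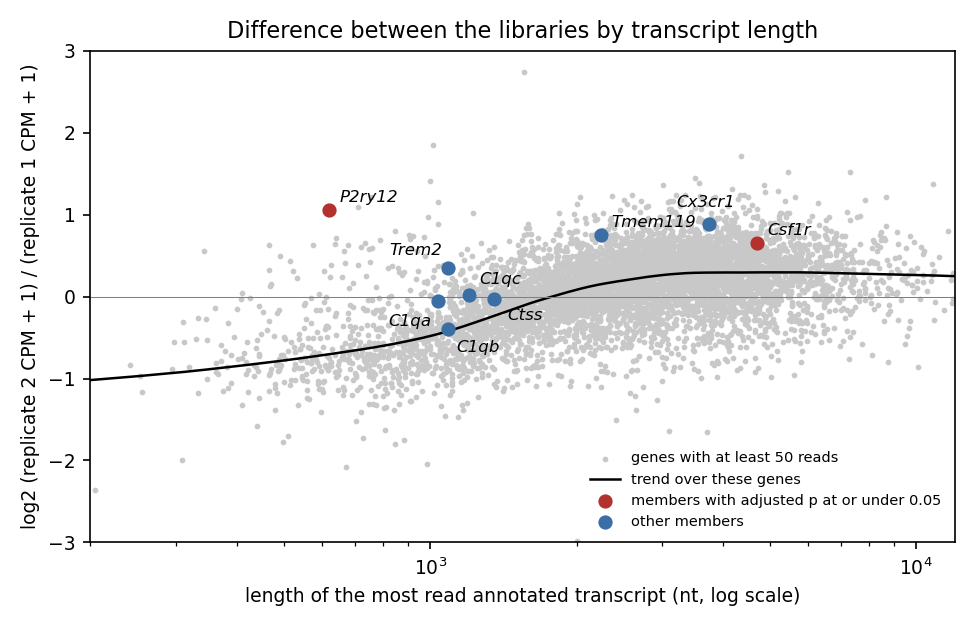
Log2 ratio of the libraries, (replicate 2 CPM + 1) / (replicate 1 CPM + 1) (y axis), by length of the most read annotated transcript in nt (x axis, log scale), for genes with at least 50 reads (grey) and the 9 members (coloured); the line is the running trend of the ratio over the grey genes. C1qa, C1qc and Ctss lie near 0 where the trend is negative, C1qb lies at -0.39 beside the trend at -0.42, and P2ry12 lies at 1.06, placed by the 619 nt of P2ry12-205.

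Transcript choice did not differ detectably between the libraries at these depths. Among the 7 members with at least 20 reads in each library, 0 passed Fisher's exact test for the share of the leading transcript (1.06% of 6607 genes passed), and 0 had an unadjusted p under 0.05. The largest difference was that of Tmem119-201, with 86.7% (73.2% to 94.9%) and 70.7% (57.3% to 81.9%) of the Tmem119 reads. With 10 or 50 reads required in each library, or with the share taken among annotated transcripts only, 0 members passed (0.718%, 2.19% and 0.106% of all genes). For the share of reads in annotated transcripts, 0 of the 7 passed (0.696% of 6607 genes), again with 0 at an unadjusted p under 0.05, and 0 with 10 or 50 reads required (0.483% and 1.36%). Csf1r had 44.9% (32.9% to 57.4%) and 56.6% (45.3% to 67.5%), a difference not detectable at this depth.

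The receptors' ligands and partners were read at very unlike levels. Of 9 genes in this list 8 had enough reads for the test and 1 passed. Cx3cl1, the neuronal ligand of CX3CR1, had 520 and 722 CPM (621 ± 143, SD, n = 2; log2 ratio 0.47, adjusted p = 4.81e-07, exact binomial test; 0.226 with the length trend removed). Both ligands of CSF1R were lower, Il34 with 39.9 ± 15.02 CPM and Csf1 with 6.80 ± 0.0677. Of the Il34 reads, 1 of 59 and 0 of 26 were of an annotated transcript. Csf2ra, a receptor chain for GM-CSF, had 34.3 ± 2.34 CPM, with 6 of 42 and 3 of 29 reads of an annotated transcript, and Nrros, which presents latent TGF-beta on microglia, 21.5 ± 6.20. In TREM2 signalling, 3 of 9 genes could be tested and 0 passed. The adaptor gene Tyrobp had 12.2 ± 5.09 CPM, the Fc receptor genes Fcgr3 and Fcer1g 19.0 ± 0.212 and 11.5 ± 1.92, and the kinase gene Syk 3.99 ± 4.05, while Hcst was at 0.

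Complement genes beyond C1q were each read at lower levels than any of the 3 C1q genes. Of 21 listed genes 20 were read, 8 could be tested and 0 passed, and the whole list summed to 100.1 and 104.6 CPM, less than the 3 C1q genes. The highest were the C1 inhibitor gene Serping1 with 19.1 ± 3.20 CPM, Masp1 with 12.6 ± 5.13, Cr1l with 12.6 ± 0.326 and Csmd1 with 8.35 ± 0.918. Annotated transcripts held 4 of 25 and 1 of 15 of the Serping1 reads, 8 of 19 and 3 of 8 of those of Masp1, 4 of 15 and 6 of 11 of those of Cr1l, and 0 of 9 and 0 of 8 of those of Csmd1. The C1q partner proteases C1ra and C1s1 had 0 and 2 reads and 0 and 1 reads, C3 had 2 and 1 reads, C4b 5 and 6, and Masp2 0. The list of C1q-like genes, most of which encode secreted proteins with the same kind of globular head, and which also holds the C1q-binding protein gene C1qbp, summed to 601 and 656 CPM with C1qtnf4 at 284 ± 14.0, C1qbp at 121 ± 17.2, C1ql2 at 112 ± 42.8 and C1ql1 at 59.2 ± 5.80 CPM, and C1ql4 at 0. In it 1 of 7 tested genes passed (2 with the length trend removed), C1ql2, a granule cell gene, with a log2 ratio of 0.79 (adjusted p = 0.000986, exact binomial test).

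Other microglial genes ranged from abundant lysosomal genes to receptors with a few reads. All 19 of the homeostatic list were read, 16 were tested, and 4 passed, each higher in replicate 2, with a list median log2 ratio of 0.17. Among them were Ctsd (681 ± 95.8 CPM), Lgmn (231 ± 43.8) and Adgre1, which encodes F4/80 (4 and 14 reads). With TMM-scaled totals or with the length trend removed 0 of the 4 passed, while with the trend on the longest transcript Ctsd did. Ctsd and Lgmn are expressed by other brain cells too. Selplg had 44.7 ± 5.16 CPM. Of 15 pan-myeloid genes 11 were tested and 0 passed, with Coro1a at 107 ± 17.2, Unc93b1 at 30.7 ± 5.90, Laptm5 at 28.4 ± 7.53 and Cyth4 at 13.2 ± 0.470 CPM. Spi1, which encodes PU.1, had 7 and 7 reads.

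Among cysteine cathepsins and their inhibitors, 9 of 10 genes were tested, 1 passed higher in each direction, and among the cathepsin genes Ctss ranked behind Ctsb (678 ± 87.8 CPM), Ctsl (169 ± 9.74), Ctsf (163 ± 15.6), Ctsz (40.2 ± 3.61) and, within the SD, Ctsh (30.8 ± 8.52). The inhibitor gene Cst3 had 3151 and 2467 CPM (log2 ratio -0.35, adjusted p = 1.50e-17, exact binomial test). With the length trend removed its direction turned, and it passed in the opposite direction (log2 difference 0.21, adjusted p = 5.90e-06, exact binomial test). Ctsb had a log2 ratio of 0.26 (adjusted p = 0.0104, exact binomial test), which did not pass with TMM-scaled totals (0.318). The levels of genes induced in disease-associated microglia ranged widely. Cd9 had 176 ± 30.2 CPM, Lpl 107.97 ± 34.9, Axl 44.5 ± 18.2 and Igf1 9.61 ± 3.91, and each is expressed by other brain cells too. Spp1 had 7 and 3 reads, Clec7a 0 and 1, and Cst7 and Itgax 0. Of these 5 could be tested and Lpl passed (2 genes with TMM-scaled totals), higher in replicate 1 (log2 ratio -0.67, adjusted p = 0.0114, exact binomial test; 0.0949 with annotated transcripts only). The neighbours of P2ry12 and related receptor genes were rare, with P2ry14 at 7.79 ± 0.123 CPM, Med12l at 4.66 ± 2.96, P2ry1 at 3.40 ± 0.0339 and P2ry2 at 1.13 ± 1.59, and with P2ry4 and P2ry10 at 0.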

How the data were processed

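Long-read RNA sequencing was analysed in 2 hippocampus libraries of 1168366 and 888704 reads. Each library has its own table of unnormalised read counts for transcript models, which the authors derived from mm10 alignments with the GENCODE M21 annotation, per the file headers and the notes deposited beside them. TALON is named as the source of models beyond that annotation. Which aligner, versions and filters were used is not stated. Counts of models sharing a gene name were summed. The members and gene lists were chosen with earlier results of these data known. Named beside the 9 members were, of each pathway list, the 4 genes with the highest mean CPM, genes that passed the binomial test, and genes with 0 reads where there were at most 5; C1ra, C1s1, C3, C4b, Csf1, Ctsz, Ctsh, Spi1, Spp1 and Clec7a, and the genes beside Cx3cr1, were named after their values were seen. Some genes that this rule names are not reported here.

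CPM were computed over all reads. Read splits were tested with exact binomial tests (at least 10 reads over both libraries), and leading and annotated shares with Fisher's exact test (at least 20 reads in each library), with Benjamini-Hochberg adjustment over all genes and a threshold of 0.05. These tests see counting error only, since 1 library against 1 leaves no spread between replicates. Unannotated chains were matched between libraries by their introns, and 1-exon models of a gene were pooled. The length trend was a lowess fit (span 0.3) over genes with at least 50 reads. Alternatives used TMM factors (edgeR 4.0.16) and DESeq2 1.42.0 size factors, other minimums, annotated transcripts only, and each library left out. R 4.3.3, Python 3.11.15, scipy 1.17.1 and statsmodels 0.14.6 were used. Both tests were tested on simulated data.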

Additional observations from a re-analysis of the deposited data

How the results depend on the processing

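The summed level of the 9 genes was 464 CPM and moved to 361 CPM with annotated transcripts only. With either library left out it ranged from 413 to 515 CPM, and with spike-ins left out of the total, both scalings or models assigned by exon overlap it moved by less than the SD. The number of members called between libraries was 2. It was 1 (P2ry12 alone) with TMM-scaled totals, with DESeq2 size factors, with a read minimum of 1, with the length trend removed by either length, and with the totals of annotated genes. It was 3 with a read minimum of 50, where Tmem119 passed (adjusted p = 0.0440, exact binomial test), and 2 with annotated transcripts only and with spike-in reads left out of the totals. For Csf1r the adjusted p of the exact binomial test ranged from 0.0280 to 0.545 over these settings. Genes called over the whole table numbered 1342, and from 465 to 1426 under the alternatives. The genes differing in leading share numbered 70, and 5 when the share was taken among annotated transcripts only. The annotated share of member reads was 77.9%, 88.3% without 1-exon models, and 76.6% to 79.3% with either library left out. In the same way the incomplete splice match share ranged from 7.21% to 11.0%. The share of unannotated-model reads in models that begin near an annotated start ranged from 15% to 18.7%. The share of spliced reads of Trem2, Csf1r and P2ry12 in the leading start was 82.7%, 83.6% with starts joined within 200 nt and 80.7% within 50 nt, and 82.2% to 83.2% with either library left out. With the length trend removed the log2 difference turned for Ctsb (-0.0312, and -0.00854 by the longest transcript) and for Cst3 (0.21 and 0.27). The turned difference passed the test for Cst3 with either length and not for Ctsb. For these changes the cause was not tested. For the split between the libraries, the length used for the trend, the totals without spike-ins and those of annotated genes were alternatives added after seeing the data. No paired analysis was possible because there was only 1 group. Depth limits Trem2, with 9 reads in each library, and Cx3cr1 the most: their shares carry the widest intervals.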
